A study of Mus musculus with 6 samples.

Results

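The genes described here were 9 named complement components and regulators, looked up by symbol in a count table of 46937 symbols: C1QA, C1RA, C2, C3, C4B, CFB, CFI, C7 and C3AR1. A row was found for 8 of the 9, and all 8 passed the filter on low counts. C1RA had no row of its own. The table instead holds C1R, a human-style symbol, and its values are given with the other complement genes because no source used here says whether reads of the mouse paralogue C1rb entered it. Complement is a cascade of secreted proteins, with receptors and inhibitors on cells, that tags targets for uptake, attracts leukocytes and can open pores in membranes. C1q binding starts the classical pathway. The proteases C1r and C1s then cut C4 and C2 into a convertase that splits C3, and the alternative pathway amplifies that split with factor B. The liver supplies most complement in plasma, while macrophages, fibroblasts, endothelium and airway epithelium also transcribe parts of it in the lung.

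The libraries came from biopsies of lung squamous cell tumours in mice, 3 labelled PSC and 3 labelled PSCN. Shared by all 6 tumours are the PI3K-activating PIK3CA allele H1047R, SOX2 overexpression and deletion of CDKN2A/B, and PSC with wild-type NSD3 is the control. PSCN adds NSD3 T1242A, a mutant of a histone H3 lysine methyltransferase. No source used here names the promoters or Cre lines behind these alleles, the age of the mice or whether each biopsy is a separate animal, so the p-values speak for the spread among these 6 samples alone, which may be technical. The comparison of PSCN with PSC concerns what accompanies the NSD3 mutant.

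Total counts per library ran from 69563622 to 72807077. NSD3 lay between 79.7 and 101.7 CPM (counts relative to library size, scaled with TMM factors) in PSC and between 820.7 and 1932 CPM in PSCN. By XIST, which reached 1088 and 1034 CPM in 2 libraries and 2.4 CPM or less elsewhere, PSC libraries 2 and 3 came from females and the other 4 from males. PSC library 3 correlated better with PSCN (mean r = 0.941 across genes) than with its own group (0.908), genes not being independent replicates. The keratins and cornified envelope genes that mark squamous cells were present in every library except that SPRR1B had no count in PSC library 1. Their summed level was 120.9, 1183 and 4158 CPM across PSC libraries 1 to 3, against 7437, 18920 and 5255 CPM across PSCN. PSC library 3 thus had the highest squamous sum of its group, and fits without it keep the PSC libraries with lower sums. For some of the genes, fitted results are also given without PSC library 3.

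Of the 8 genes, 7 had a lower fitted level in PSCN and C3AR1 a higher one, with a median log2 fold change of -1.20 beside -0.01 over the 21201 genes tested, of which 50.9% were negative. The median of the 8 was -0.73 without PSC library 3 and -0.47 with sex as a covariate. None of the 8 passed an adjusted p of 0.05 in edgeR's quasi-likelihood test, which called 0.00472% of all genes. At an unadjusted p under 0.05 there were 3 lower genes (C4B, C2 and CFI) and 0 higher genes, against 12.2% and 9.48% of all genes. In those same 3 genes every PSCN library lay below every PSC library, as it did in 13.4% of all genes. DESeq2 called 2 of the 8 lower (C4B and CFI) and 0 higher, beside 8.63% and 5.26% of all genes. Limma-voom with sample quality weights called 1 lower (C4B) and 0 higher, beside 5.84% and 8.43%, and limma-voom without weights called 0. The authors' deposited table has C4B and CFI lower and 0 higher at that threshold, beside 8.1% and 3.92% of its genes. Without PSC library 3 edgeR called C4B and C7 lower, and 0 higher, beside 5.4% and 3.39% of the genes tested.

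**Figure D1:**
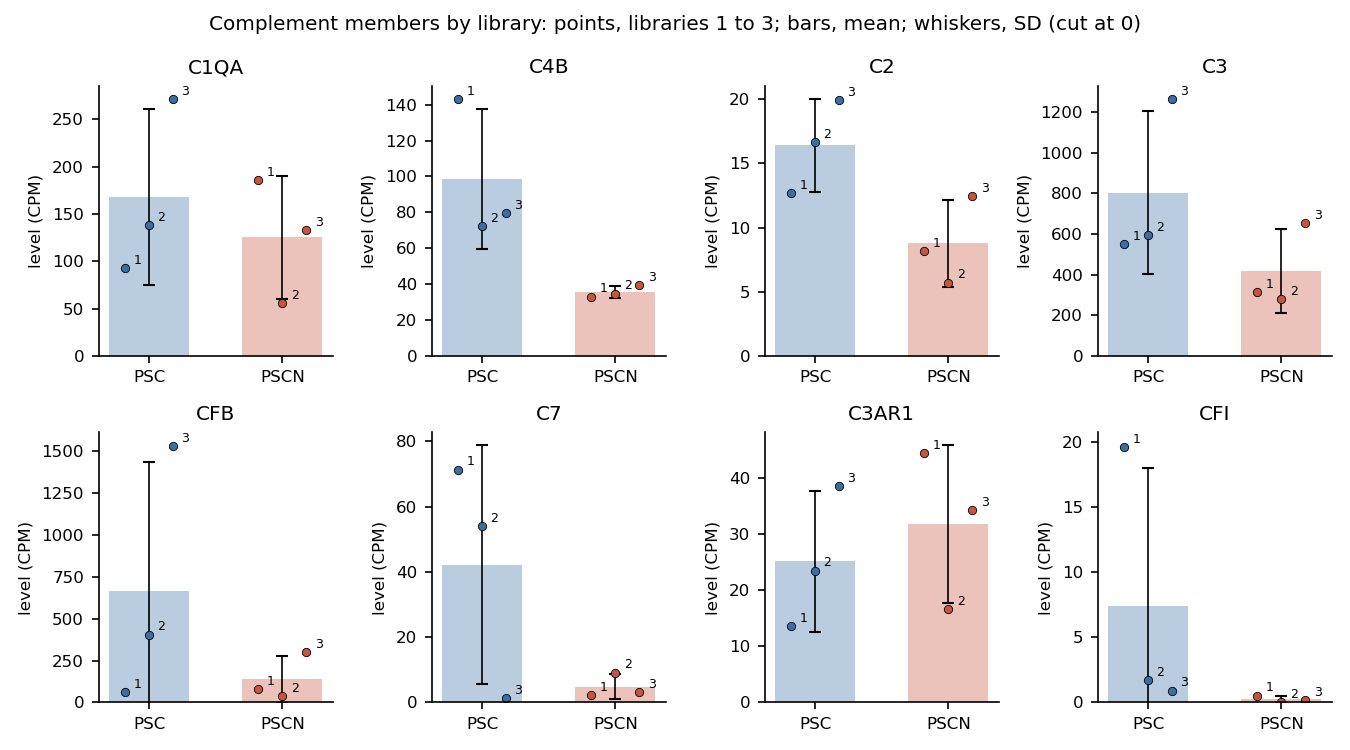
Level of each complement gene in CPM on the vertical axis, by group on the horizontal axis; numbered points are libraries 1 to 3, bars are means and whiskers are SD. C4B, C2 and CFI show no overlap between groups, while CFB in PSC runs from 62.1 to 1530 CPM and C7 from 1.23 to 71.4 CPM.

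Promoter windows from RefSeq (GRCm38.p6) were at hand for C1RA, C3, C7 and C3AR1. The 3 with a row in the table are shown because they follow 3 different patterns over the libraries: C3 was highest in PSC library 3, C7 was lowest there, and C3AR1 showed no lower level in PSCN. Each run is the 250 bases before the annotated start, 5′ to 3′ on the gene's strand (minus for all 3), at chr17:57228137-57228386 for C3, chr15:5063774-5064023 for C7 and chr6:122856158-122856407 for C3AR1. Capitals mark matches to any of 6 motifs searched on both strands.
C3: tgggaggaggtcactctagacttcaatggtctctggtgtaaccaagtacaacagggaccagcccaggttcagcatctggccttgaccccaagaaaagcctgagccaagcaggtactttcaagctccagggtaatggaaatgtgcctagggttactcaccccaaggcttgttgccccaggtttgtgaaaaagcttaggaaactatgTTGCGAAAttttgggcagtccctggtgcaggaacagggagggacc
C7: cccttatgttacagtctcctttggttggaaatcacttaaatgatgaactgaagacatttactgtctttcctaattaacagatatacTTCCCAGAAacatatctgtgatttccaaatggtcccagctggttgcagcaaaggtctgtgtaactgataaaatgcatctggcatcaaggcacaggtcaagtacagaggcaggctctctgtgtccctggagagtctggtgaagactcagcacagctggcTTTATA
C3AR1: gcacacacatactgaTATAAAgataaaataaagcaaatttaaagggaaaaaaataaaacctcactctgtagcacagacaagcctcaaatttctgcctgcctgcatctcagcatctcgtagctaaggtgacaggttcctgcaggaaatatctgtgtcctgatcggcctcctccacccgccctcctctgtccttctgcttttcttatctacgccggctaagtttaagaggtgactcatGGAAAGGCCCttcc
The motifs were the GAS element TTCNNNGAA, the interferon-stimulated response element (ISRE) core, the NF-kappaB element, the C/EBP form TTNNGCAA, TATAAA and the PU.1 core GAGGAA, none of which overlapped another in these windows. C3 held 1 C/EBP match on the opposite strand, printed as TTGCGAAA, at positions -45 to -38 (the base before the start being -1), a form found in 9.56% of the 32851 windows of that length. C7 held 1 GAS match, TTCCCAGAA, at -164 to -156 (7.02% of windows) and a TATAAA match on the opposite strand at -6 to -1 (12.4%). C3AR1 held 1 NF-kappaB match on the opposite strand, GGAAAGGCCC, at -14 to -5 (1.41% of windows) and a TATAAA match at -235 to -230. The C1RA window held no match. These are matches of letters, not measured sites.

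Recognition was represented by C1QA, a chain of the C1q molecule that binds antibody complexes and dying cells (ENSMUSG00000036887.5, chromosome 4, 136895917 to 136898803, GRCm38). It stood at 93.2, 138 and 271.8 CPM across PSC libraries 1 to 3, against 186.3, 56.3 and 133.1 CPM across PSCN libraries 1 to 3. The groups overlapped throughout, and the highest and lowest libraries differed 2.92-fold within PSC and 3.31-fold within PSCN. PSC averaged 167.7 ± 92.9 CPM (SD, n = 3) and PSCN 125.2 ± 65.4 CPM (SD, n = 3), and the log2 fold change was -0.42 (SE 0.56, adjusted p = 0.669 in edgeR). It turned to 0.13 without PSC library 3 and to 0.43 with sex as a covariate. The partner chains encoded next to it, C1QB and C1QC, had log2 fold changes of -0.10 (SE 0.61) and -0.20 (SE 0.59), and both turned positive in the same 2 fits. C1QA carried between 1.05 and 1.55 counts for each count of C1QB over the 6 libraries, and both were highest in PSC library 3 and PSCN library 1 of their groups.

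The lectin side of recognition was scarce. Of the 9 recognition genes listed, 8 had a row, 6 were tested and all 6 were negative, beside 50.9% of all genes, with a median of -1.15. Of the 6, 1 lay lower without overlap, beside 13.4% of all genes. That gene was the collectin COLEC11, at 0.58, 0.17 and 0.64 CPM across PSC, against 0, 0 and 0.11 CPM across PSCN (log2 fold change -3.55, SE 1.31). The PSCN level rests on 8 counts in library 3, and without that library the fitted value, which then depends on the prior count, was -8.06. FCNA, the ficolin of macrophages, had -1.88 (SE 0.75), or -1.17 without PSC library 3, and its groups overlapped. Among the proteases that act next, C1R stood at 41.5, 44 and 82.5 CPM across PSC, against 58.2, 32.7 and 58.6 CPM across PSCN (-0.17, SE 0.36). C1S, its substrate and partner, had 0.08 (SE 0.53), the C1r-like protease C1RL -0.53 (SE 0.32) and the lectin pathway protease MASP1 -1.06 (SE 1.09). All 4 of these proteases overlapped between groups, and C1R, C1S and MASP1 changed sign when certain single libraries were left out. C1R turned to 0.24 without PSC library 3, and C1S to -0.16 and MASP1 to 0.82 without PSC library 1. Without PSC library 3, C1S was at 0.88 (SE 0.30).

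C4B had the smallest p of the 8 genes. It encodes C4, which C1s cuts so that a fragment binds covalently to the target (ENSMUSG00000073418.4, chromosome 17, 34728380 to 34743882). Its levels were 143.2, 72.3 and 79.7 CPM across PSC, against 33.1, 34.7 and 39.5 CPM across PSCN. Every PSCN library lay below the lowest PSC library, and PSCN varied by 1.20-fold between its highest and lowest library. PSC averaged 98.4 ± 39 CPM (SD, n = 3) and PSCN 35.8 ± 3.35 CPM (SD, n = 3), and the log2 fold change was -1.46 (SE 0.29, unadjusted p = 0.00242, adjusted p = 0.171 over all genes in edgeR). The adjusted p was 0.00124 with DESeq2, 0.0427 with limma-voom with quality weights and 0.0479 in edgeR without PSC library 3, and over all 16 alternatives it ran from 0.00124 to 0.421. The authors' deposited table gives -1.47 with an adjusted p of 0.00189. The symbol C4A carries the same counts as C4B in all 6 libraries, so the mouse paralogue C4a, which lies nearby and is annotated as a processed transcript, cannot be told apart from C4b here.

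C2, the protease that joins C4 in the classical convertase, had low and separate levels (ENSMUSG00000024371.14, chromosome 17, 34862604 to 34898265). They were 12.7, 16.6 and 19.9 CPM across PSC, against 8.17, 5.72 and 12.4 CPM across PSCN. PSCN library 3 lay just under PSC library 1 (12.42 against 12.66 CPM), so the groups were separate by a narrow margin. PSC averaged 16.4 ± 3.63 CPM (SD, n = 3) and PSCN 8.77 ± 3.39 CPM (SD, n = 3), and the log2 fold change was -0.90 (SE 0.35, adjusted p = 0.215 in edgeR). It was -0.73 without PSC library 3 and -0.53 with sex as a covariate.

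C3, the component on which all activation routes converge, had the highest mean CPM of the 8 in both groups (ENSMUSG00000024164.15, chromosome 17, 57203970 to 57228136). It stood at 549.4, 592.7 and 1265 CPM across PSC, against 315.1, 278.7 and 654.6 CPM across PSCN. PSCN library 3 lay above PSC libraries 1 and 2, so the groups overlapped. PSC averaged 802.5 ± 401 CPM (SD, n = 3) and PSCN 416.2 ± 207 CPM (SD, n = 3), and the log2 fold change was -0.95 (SE 0.49, adjusted p = 0.3 in edgeR). It was -0.44 without PSC library 3 and -0.40 with sex as a covariate.

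CFB, factor B, supplies the protease of the alternative pathway convertase (ENSMUSG00000090231.10, chromosome 17, 34856374 to 34862518). It spread further than C3, at 62.1, 405.5 and 1530 CPM across PSC, against 81.6, 37.6 and 299.6 CPM across PSCN. In each group library 3 was the highest, and the male PSC library 1 lay inside the PSCN range. PSC averaged 665.8 ± 768 CPM (SD, n = 3) and PSCN 139.6 ± 140 CPM (SD, n = 3), and the log2 fold change was -2.25 (SE 1.26, adjusted p = 0.333 in edgeR). It was -0.73 without PSC library 3 and 1.17 (SE 1.38) with sex as a covariate. Interferon gamma response genes, a list that includes IRF1 and the guanylate binding proteins, summed to 1070, 1522 and 6072 CPM across PSC, against 2019, 1300 and 6415 CPM across PSCN. Of its 18 genes, 10 were positive and 8 negative, with 0 without overlap, and library 3 was the highest of each group as for CFB and C3. IDO1, an interferon-induced enzyme that breaks down tryptophan, was at 44.6 CPM in PSC library 3 and between 1.04 and 4.79 CPM in the others. The part of this response in the CFB values was not tested.

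Of the other convertase genes, CFD, the factor D that cuts factor B and is made in fat tissue, was at 9.37, 0.17 and 2.32 CPM across PSC, against 0, 0.17 and 0 CPM across PSCN (log2 fold change -6.11, SE 2.05, adjusted p = 0.196 in edgeR). Its lowest PSC and highest PSCN library were both at 0.17 CPM, 13 and 11 counts. Leaving out PSC library 1 gave a log2 fold change of -4.44, and leaving out PSCN library 2 gave -11.19, where the remaining PSCN libraries are at 0 and the fitted value depends on the prior count. The stabiliser CFP, properdin, was at -0.32 (SE 0.28), or -0.08 without PSC library 3, and overlapped. All 7 tested convertase symbols were negative, beside 50.9% of all genes. This count and the median of -1.46 include C4A, which repeats the values of C4B.

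C7, a subunit of the pore-forming membrane attack complex, split the PSC group (ENSMUSG00000079105.4, chromosome 15, 4988762 to 5063740). It stood at 71.4, 54.1 and 1.23 CPM across PSC, against 2.33, 9.15 and 3.15 CPM across PSCN. PSC library 3 was the lowest of all 6 libraries, and the other PSC libraries were the highest. PSC averaged 42.3 ± 36.6 CPM (SD, n = 3) and PSCN 4.88 ± 3.72 CPM (SD, n = 3), and the log2 fold change was -3.11 (SE 1.34, adjusted p = 0.244 in edgeR). Without PSC library 3 it was -3.67 (SE 0.65) with an adjusted p of 0.0445. The other terminal components tested were C6, at -1.64 (SE 0.72), C5, at -1.44 (SE 1.15), and C8G, at -0.15 (SE 0.42). C8G overlapped between groups, at 0.71 to 1.69 CPM, and C8A, C8B and C9 had rows but were not tested. C6 was likewise lowest in PSC library 3, at 8.05 CPM, and had -2.10 (SE 0.37, adjusted p = 0.0443 in edgeR) without it, but -0.80 (SE 0.61, adjusted p = 0.604 in edgeR) without PSC library 2. C5, the source of the C5a attractant, was at 308.9 CPM in PSC library 2 and between 8.88 and 59.1 CPM in the others, and turned to 0.69 without that library. Endothelial markers were negative in 7 of 7 genes (median -0.75, 0 without overlap) and summed to 1738, 999.8 and 311.8 CPM across PSC, against 771.4, 642.1 and 440.8 CPM across PSCN, so they too were lowest in PSC library 3. No endothelial marker was at 0 in any library. Sums of alveolar type 2 markers, given below, were also lowest in PSC library 3. The part of either cell type in the C7 values was not tested. In bulk tissue, fewer cells of a type and less RNA per cell cannot be told apart.

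C3AR1, the receptor for the C3a fragment on myeloid cells, was the gene with a positive difference (ENSMUSG00000040552.8, chromosome 6, 122847138 to 122856161). It stood at 13.6, 23.5 and 38.5 CPM across PSC, against 44.3, 16.6 and 34.2 CPM across PSCN. The groups overlapped. PSC averaged 25.2 ± 12.5 CPM (SD, n = 3) and PSCN 31.7 ± 14.1 CPM (SD, n = 3), and the log2 fold change was 0.33 (SE 0.50, adjusted p = 0.705 in edgeR). Leaving out PSC library 3 gave 0.79, leaving out PSCN library 1 gave 0.02, and sex as a covariate gave 1.23. Macrophage markers summed to 228.1 to 508.8 CPM across PSC, against 326.5 to 688.2 CPM across PSCN. Of 11 tested, 4 were positive and 7 negative, 0 without overlap, with a median of -0.15. CSF1R, the receptor that macrophages need to survive, ran from 65.5 to 163.4 CPM in PSC and from 62.9 to 183.7 CPM in PSCN, and CD163, a marker of some macrophages, was at 0 in PSCN library 3. The part of macrophage content in C1QA and C3AR1 was not tested.

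Of the 7 receptor genes tested, 5 were positive and 2 negative, with a median of 0.24. The integrin chain ITGAM, part of complement receptor 3, had 0.29 (SE 0.60), and the C5a receptor C5AR1 had -0.36 (SE 0.71). Both overlapped between groups and changed sign when PSCN library 1 was left out. CR2, the receptor for C3d on B cells and follicular dendritic cells, was at 14, 4.67 and 31.2 CPM across PSC, against 0.23, 0.88 and 1.49 CPM across PSCN. The groups did not overlap, with a log2 fold change of -4.25 (SE 0.98, adjusted p = 0.18 in edgeR and adjusted p = 9.49e-05 with DESeq2), and -3.40 without PSC library 3. All 6 B cell markers were negative and without overlap (median -3.29), summing to 52.2 to 195.4 CPM across PSC, against 7.42 to 18.6 CPM across PSCN. PSC library 3 was the highest for both CR2 and this sum. No B cell marker was at 0 in a library, and the part of B cells in the CR2 difference was not tested. VSIG4, the macrophage receptor for C3b, did not pass the filter on low counts. It had 6, 13 and 42 counts across PSC (61 over the group) and 0 over the 3 PSCN libraries. Against a floor of 3 counts over the group, the pooled PSC counts were at least 20.8-fold above PSCN. Most of those counts came from PSC library 3, and the bound was not computed without it. The authors' deposited table gives VSIG4 a log2 fold change of -6.67 (adjusted p = 0.00529, Wald test) at a mean normalized count of 9.74.

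**Figure D2:**
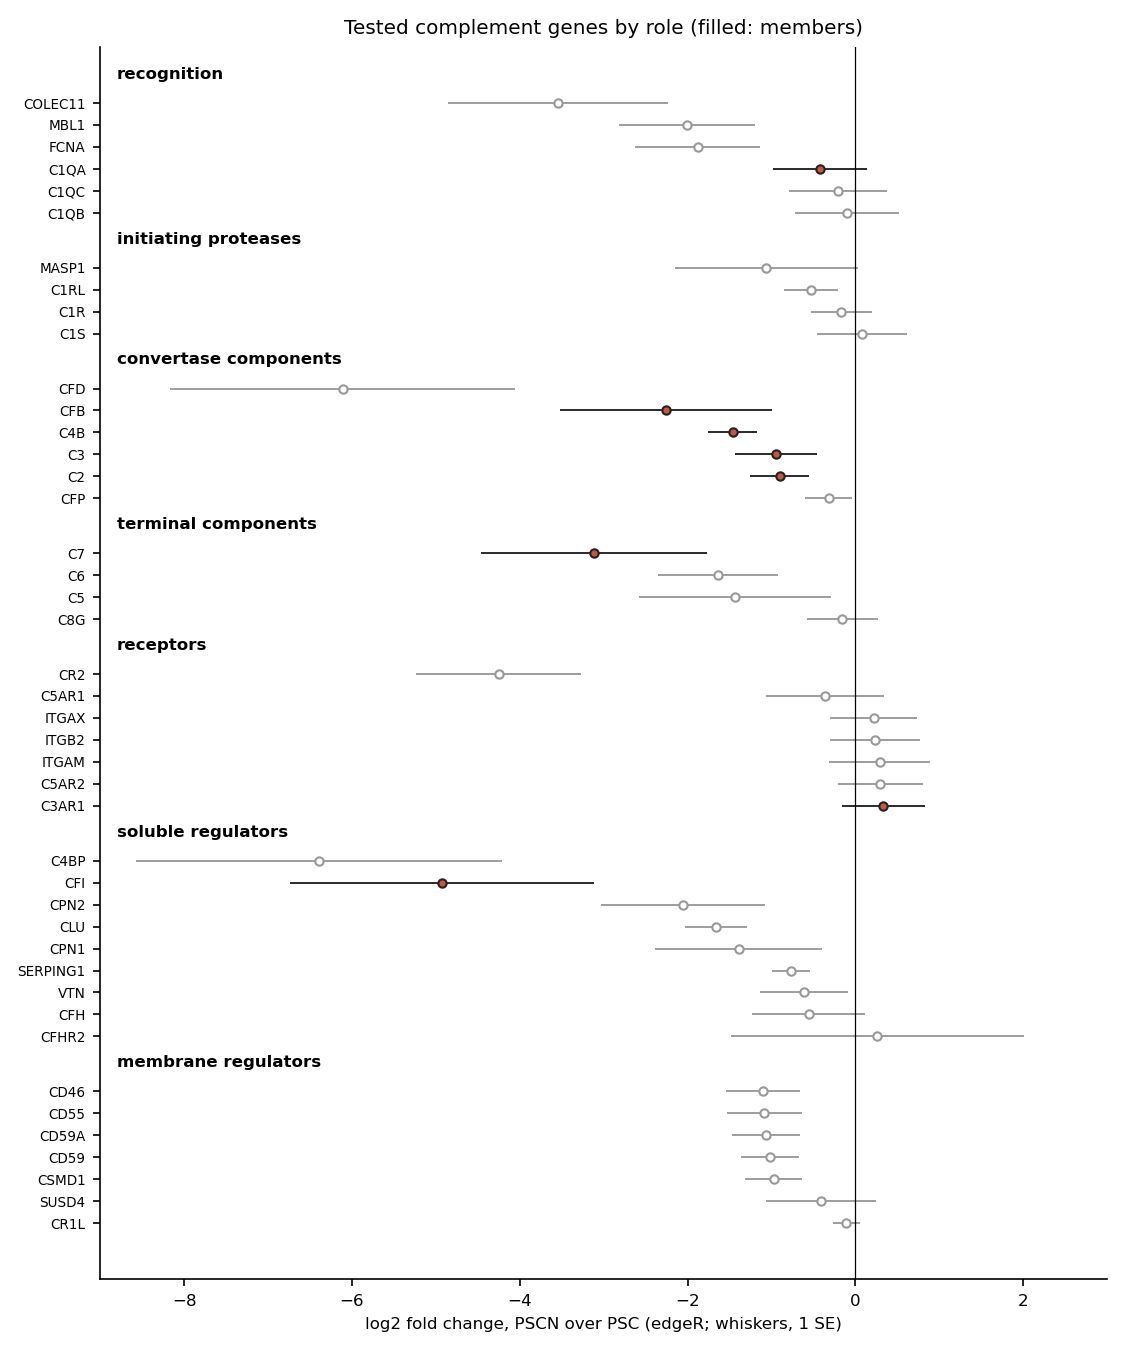
Log2 fold change of PSCN over PSC (horizontal axis, whiskers 1 SE) for the tested complement symbols that have values of their own, grouped by role, with the 8 described genes filled. Receptors other than CR2 lie on both sides of 0, while 7 of 7 tested membrane regulators lie below it.

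CFI, factor I, the protease that inactivates C3b and C4b, had the largest fitted difference of the 8 at the lowest level (ENSMUSG00000058952.12, chromosome 3, 129835884 to 129875332). It stood at 19.6, 1.70 and 0.91 CPM across PSC, against 0.53, 0 and 0.20 CPM across PSCN. Its counts were 1450, 129 and 67 in PSC and 36, 0 and 14 in PSCN, and 0 counts allow up to 0.0464 CPM in PSCN library 2. The groups did not overlap, and PSC library 1 held most of the PSC counts. PSC averaged 7.40 ± 10.6 CPM (SD, n = 3) and PSCN 0.24 ± 0.27 CPM (SD, n = 3), and the log2 fold change was -4.93 (SE 1.81, adjusted p = 0.208 in edgeR). The adjusted p was 0.0163 with DESeq2, and the authors' deposited table gives 0.0144. Without PSC library 1 the log2 fold change was -2.43 with an adjusted p of 0.48.

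C4BP, the plasma cofactor with which factor I degrades C4b, had a like dependence on PSC library 1, at 22.15 CPM there and at 1.16 CPM or less in the other 5 libraries (log2 fold change -6.39, SE 2.18, and -2.82 without that library). CLU, clusterin, a secreted chaperone that blocks pore assembly, was at 592.7, 368.5 and 406.1 CPM across PSC, against 219.1, 105.1 and 108.5 CPM across PSCN. Its groups did not overlap, with a log2 fold change of -1.66 (SE 0.37, adjusted p = 0.179 in edgeR, 0.00132 with DESeq2 and 0.0357 with limma-voom with quality weights). SERPING1, the inhibitor of C1r and C1s, was at 400.7, 258.8 and 299.6 CPM across PSC, against 167.8, 170.7 and 225 CPM across PSCN, also without overlap (-0.77, SE 0.23, adjusted p = 0.191 in edgeR and 0.0381 with DESeq2). The authors' deposited table gives adjusted p-values (Wald test) of 0.00177 for CLU and 0.054 for SERPING1, the latter not under 0.05. CPN2, a subunit of the carboxypeptidase that trims C3a and C5a, had -2.06 (SE 0.98). Of 9 soluble regulators tested, 8 were negative (median -1.39), beside 50.9% of all genes, and 3 lay lower without overlap, beside 13.4%.

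Membrane regulators protect a cell from its own complement. All 7 tested were negative, with a median of -1.02, beside 50.9% of all genes, and 3 lay lower without overlap, beside 13.4%. CD59A, which stops pore assembly, was at 43.9, 39 and 31.3 CPM across PSC, against 12, 12.5 and 30 CPM across PSCN, PSCN library 3 lying close to the lowest PSC library (log2 fold change -1.07, SE 0.40). The related symbol CD59 had -1.02 (SE 0.34, adjusted p = 0.0177 with DESeq2) at levels of 0.56 to 1.82 CPM, and reads of the mouse Cd59 copies may be split between these symbols. CSMD1, a large membrane inhibitor, had -0.97 (SE 0.34), and the cofactor CD46 had -1.10 (SE 0.44) with overlap. CR1L was nearly level, at a mean of 54.6 CPM in PSC and 50.7 CPM in PSCN (-0.11, SE 0.16, with overlap). CD55 had -1.09 (SE 0.45) and SUSD4 -0.41 (SE 0.65), also with overlap.

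Over the 46 other complement genes with a row of their own, 35 were tested. Of these, 29 were negative and 6 positive, with a median of -0.77, and 0 passed an adjusted p of 0.05 in edgeR. At an unadjusted p under 0.05 there were 12 lower and 0 higher, against 12.2% and 9.48% of all genes. In 8 of the 35 every PSCN library lay below every PSC library, against 13.4% of all genes, and in 0 above, against 15.2%. DESeq2 called 6, all lower, beside 8.63% of all genes lower and 5.26% higher. Limma-voom with quality weights called 1, CLU, lower, beside 5.84% lower and 8.43% higher, and limma-voom without weights called 0. Without PSC library 3 edgeR called 2 lower, beside 5.4% lower and 3.39% higher. These were C6 and MBL1, a mannose-binding lectin under 1 CPM in every library, named after its values were seen.

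**Figure D3:**
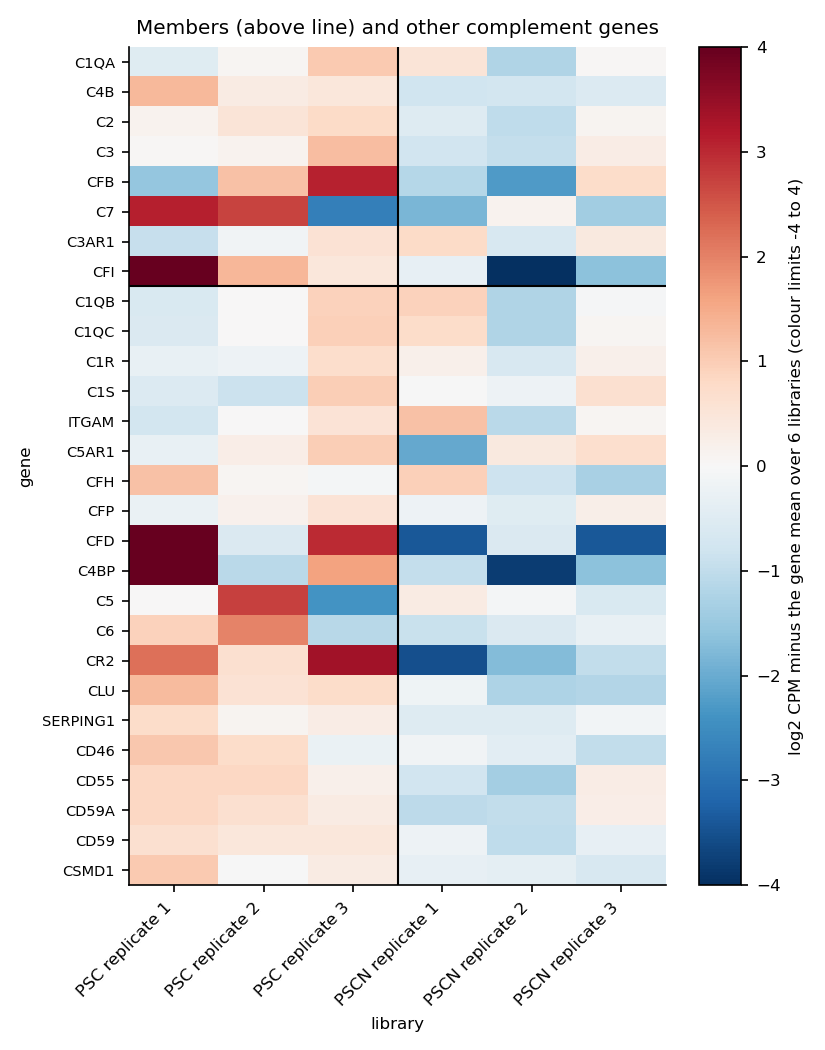
Log2 CPM of each gene minus its mean over the 6 libraries (colour, limits -4 to 4), libraries in columns, the 8 described genes above the line and 20 other complement genes below it. C3 and CFB are highest in PSC library 3, where C7, C5 and C6 are low, and C4B, CLU and SERPING1 separate the groups in every library.

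Per kilobase of exon, a scale on which genes can be compared, the PSC means were 235.7 for CFB, 161.2 for C1QA and 156 for C3 (CPM per kb), and these 3 overlapped over their libraries. They were followed by C4B at 17.3, C7 at 15.8, C3AR1 at 5.84, C2 at 4.24 and CFI at 3.33. The lowest C3 library, at 106.8, lay above the highest C4B library, at 25.1, while the lowest CFB library, at 22.0, lay below it. Each neighbour from C4B down overlapped the next. In PSCN the order was C1QA at 120.4, C3 at 80.9, CFB at 49.4, C3AR1 at 7.36, C4B at 6.28, C2 at 2.26, C7 at 1.82 and CFI at 0.11. There the breaks without overlap lay between CFB (lowest 13.3) and C3AR1 (highest 10.3), between C4B (lowest 5.81) and C2 (highest 3.21) and between C7 (lowest 0.872) and CFI (highest 0.237).

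C4B, CFB and C2 lie within 169886 bases of chromosome 17, in the class III part of the mouse MHC. CFB and C2 are both on the minus strand with 85 bases between them, C2 being upstream. A further annotated gene, GM20547, runs through both CFB and C2 and had 0 to 4 counts per library. ZBTB12 lies inside the span of C2 on the opposite strand, at a mean of 11.35 CPM in PSC and 7.04 CPM in PSCN. Its log2 fold change was -0.69 (SE 0.42), with overlap. Strand use in the counting is not given, so whether reads of ZBTB12 entered the C2 counts is not known. Of 21 other tested genes within 100000 bases of the cluster, a window chosen after values were seen, 10 were negative and 11 positive with a median of 0.04. Of these 21, 3 lay lower and 4 higher without overlap, beside 13.4% and 15.2% of all genes. The 4 protein-coding genes between C4B and CFB that were tested ran from -0.01 to 0.37, namely STK19 at -0.01 (SE 0.16), the RNA decapping enzyme DXO at -0.00 (SE 0.16), the RNA helicase SKIV2L at 0.04 (SE 0.12) and the elongation factor subunit NELFE at 0.37 (SE 0.17), the last higher without overlap. The pseudogenes between them were TNXA at -3.69 (SE 1.25) and STK19-PS1 at -0.04 (SE 0.39), both with overlap. TNXB, the matrix protein tenascin XB on the other side of C4B, had -3.14 (SE 0.86) without overlap, and the methyltransferase EHMT2 beyond C2 had -0.07 (SE 0.14).

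**Figure D4:**
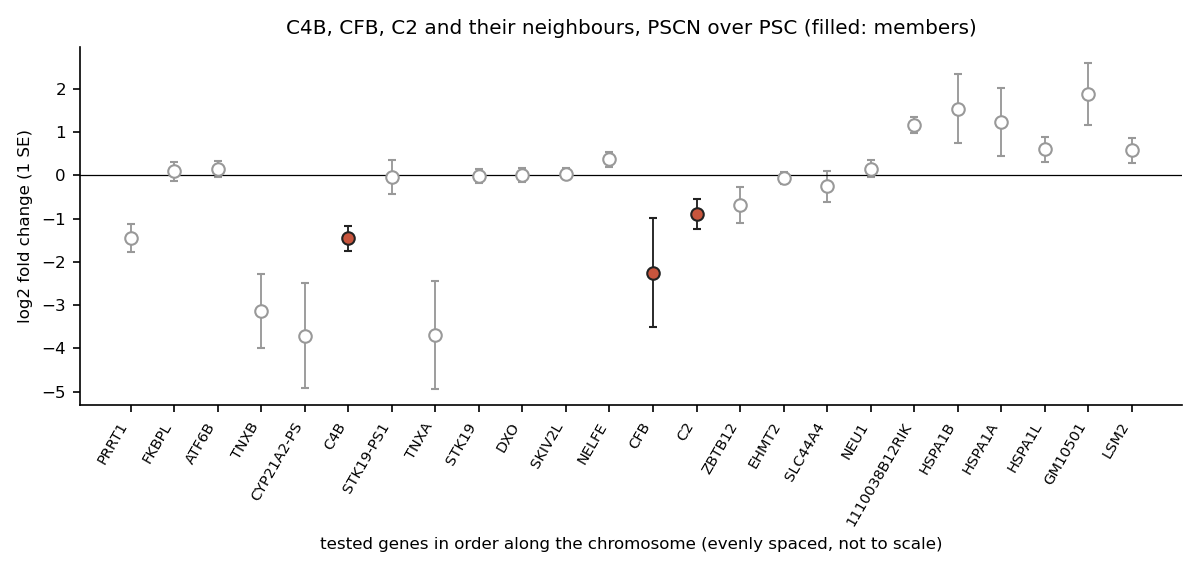
Log2 fold change of PSCN over PSC (vertical axis, whiskers 1 SE) for tested genes around C4B, CFB and C2, in order along the chromosome and evenly spaced. Between C4B (-1.46) and CFB (-2.25) the protein-coding STK19, DXO, SKIV2L and NELFE lie from -0.01 to 0.37 and the pseudogene TNXA lies at -3.69.

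The genes most like each of the 8 over the 6 libraries were found by the root mean square difference of log2 CPM, each gene centred on its own mean, among 12356 genes with a mean of at least 5 CPM. C3AR1 was nearest to ZMYND15 (0.11), CSF1R (0.12) and LRRC25 (0.19). C1QA was nearest to C1QC (0.11), the proton-sensing receptor GPR65 (0.14) and the sulfotransferase CHST3 (0.18). C3 was nearest to FGL2 (0.08), PLBD1 (0.13) and the leukocyte integrin ITGAL (0.14), and C2 to DOCK2 (0.15), ASB13 (0.15) and RNASET2 (0.17). C4B was nearest to UNC13B (0.12), ACYP2 (0.15) and GIMAP8 (0.16). The wide-ranging genes had more distant neighbours. C7 was nearest to TMEM100 (0.43), ELMOD1 (0.50) and CA4 (0.59), a carbonic anhydrase of capillaries, CFI to BPIFB1 (0.81), a secreted protein of the airway epithelium, CMYA5 (1.02) and SULT1D1 (1.05), and CFB to B3GAT1 (0.68), VNN3 (0.69) and LY6I (0.70). Among the 8 themselves C2 and C3 were the closest pair (0.28), then C1QA and C3AR1 (0.41).

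Lists of other cells and of inducers were read beside these values. Club cell markers, of the secretory airway epithelium, were negative in 5 of 5 (4 without overlap) and summed to 2804 to 27100 CPM across PSC, against 567.5 to 1919 CPM across PSCN. In PSC their sums of 27100, 17980 and 2804 CPM had the same order as CFI at 19.6, 1.70 and 0.91 CPM. Sums of ciliated cell markers (7 of 7 negative), at 670.3, 331.7 and 35.8 CPM, and the endothelial sums above also had this order in PSC. In PSCN, CFI at 0.53, 0 and 0.20 CPM had the order of the club cell sums (1919, 567.5 and 1474 CPM). There it did not have the order of the ciliated sums (40.8, 27.5 and 60.1 CPM) or of the endothelial sums. Alveolar type 2 markers were negative in 6 of 6, with sums of 6846, 12330 and 1470 CPM across PSC, against 2121, 2283 and 2805 CPM across PSCN. Like the endothelial sums, they were lowest in PSC library 3. The part of these cell types in the CFI values was not tested. Of 10 fibroblast markers, 6 were positive and 4 negative (median 0.67), and 1 lay lower without overlap, the matrix gene DPT at -1.32 (SE 0.38). They summed to 1547 to 4062 CPM across PSC, against 1171 to 41570 CPM across PSCN, the highest being PSCN library 1, where the collagens COL1A1 and COL1A2 reached 19230 and 16830 CPM. In that library C1R stood at 58.2, C3 at 315.1 and C7 at 2.33 CPM, none of them the highest of its group. Hepatocyte markers summed to 4.85 CPM or less in every library, and 1 of the 6 with a row was tested. Of 15 tested acute phase and NF-kappaB response genes, 12 were positive and 3 negative (median 0.40), among them IL6 at 1.78 (SE 0.61) and SOCS3 at 0.78 (SE 0.28), both higher without overlap, and the haemoglobin-binding HP at -1.51 (SE 0.39), lower without overlap.

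**Figure D5:**
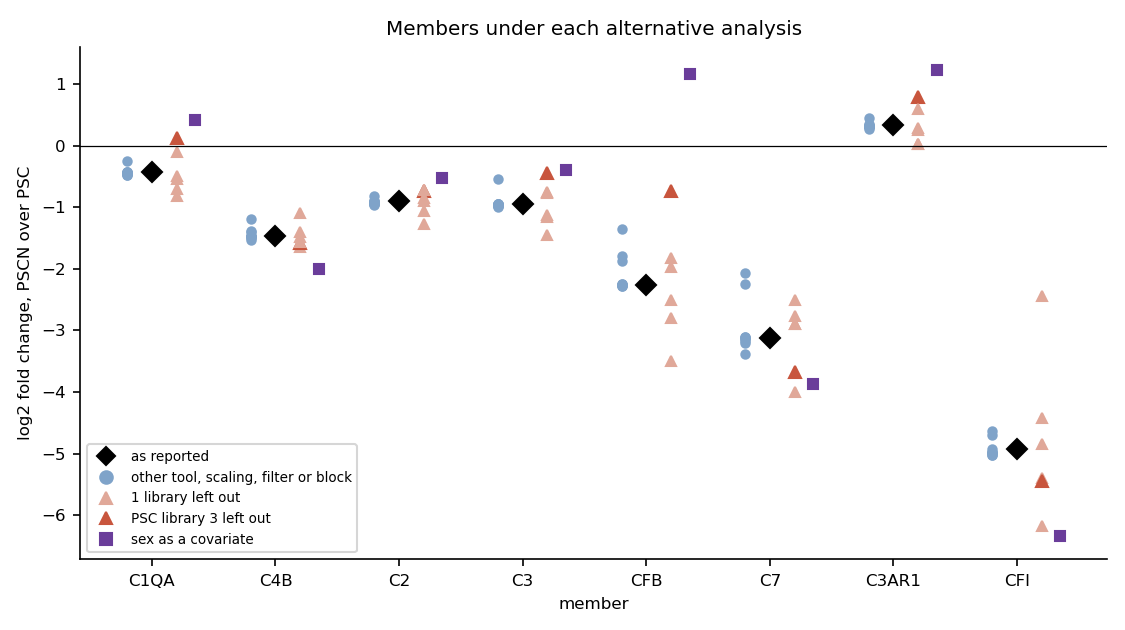
Log2 fold change of PSCN over PSC (vertical axis) for the 8 genes under each analysis; diamonds are the reported values, circles other tools, scalings, filters or the replicate block, triangles fits without 1 library and squares the fit with sex as a covariate. C4B stays between -2.0 and -1.09, while CFB runs from -3.50 to 1.17.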

How the data were processed

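Total RNA of 6 tumour biopsies was sequenced as paired reads from a stranded kit, per the labels' protocols. Trimmomatic, HISAT2, StringTie, DESeq2 and GRCm38 appear in the submitters' processing notes, which give no version. No source used here says whether counting used the strand. The authors' deposited counts are whole numbers per gene symbol. Their second deposited table holds a mean normalized signal, log2 fold changes with standard errors, the Wald score, p-values and adjusted p-values. Columns C1 to C3 and N1 to N3 were read as PSC and PSCN replicates 1 to 3, which no label states outright.

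Genes were filtered with filterByExpr (21201 of 46937 left), and TMM-scaled counts went into edgeR's quasi-likelihood test (version 4.0.16, R 4.3.3, deviances as in earlier edgeR versions), adjusted by Benjamini-Hochberg over all genes tested with a threshold of 0.05. The SE of a log2 fold change is its size over the root of the F statistic. An exact permutation of 3 against 3 cannot reach that threshold, so none was used. Alternatives were RLE and upper quartile scaling, DESeq2 1.42.0, limma-voom (limma 3.58.1) with and without quality weights, leaving the filter out, requiring 1 CPM in 3 or more libraries, omitting each library in turn, a replicate block and sex as a covariate. Adjusted deviances in edgeR were added after seeing the data. The fits were tested on simulated data.

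The members, lists and tests were chosen with earlier results of these data known. Named genes were the members, up to 4 genes per complement list by p, complement genes without overlap, the 3 nearest genes per member and up to 4 genes per marker list. C1R, FCGR1A and TP63, human-style symbols, joined the lists once the table was seen. C1QB, C8G, CD55, CR1L, MBL1, SUSD4, the chromosome 17 neighbours and single genes of the marker and response lists were named after their values were seen. Coordinates and exon lengths come from GENCODE M21 (GRCm38), matched on the symbol in capitals. Floors cover counting error only, since the reads carry no molecular identifiers that would make them independent molecules.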

Additional observations from a re-analysis of the deposited data

How the results depend on the processing

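Over all genes, edgeR called 1 higher and 0 lower. DESeq2 called 1115 higher and 1830 lower, limma-voom with quality weights 1788 and 1238, and limma-voom without weights, the replicate block and sex as a covariate 0 higher; the filter of 1 CPM and adjusted deviances each gave 3 higher. Leaving out each library gave 0 to 751 higher and 0 to 1195 lower, the highest being without PSC library 3. Of the 8 members, 0 passed in edgeR, 2 with DESeq2, 1 with limma-voom with quality weights and 0 to 2 without 1 library; of the other complement genes, 0, 6, 1 and 0 to 2. The number of negative genes stayed within 1.5 times in both sets under every alternative.

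Some signs turned. Leaving out 1 library at a time, log2 fold changes ran from -0.82 to 0.13 for C1QA, -0.75 to 0.42 for C1QB, -0.70 to 0.34 for C1QC, -0.34 to 0.24 for C1R, -0.23 to 0.88 for C1S, -1.97 to 0.69 for C5, -0.79 to 0.12 for C5AR1, -0.42 to 0.66 for ITGAM and -1.85 to 0.82 for MASP1. PSC library 3 was the one left out at the positive end for C1QA, C1QB, C1QC, C1R, C1S and ITGAM. It was PSC library 2 for C5, PSC library 1 for MASP1 and PSCN library 1 for C5AR1. With sex as a covariate, a fit that rests on PSC library 1 as the only male PSC library, they were 0.43 for C1QA, 1.17 for CFB, 0.75 for C1QB, 0.65 for C1QC, 0.27 for C1R, 0.35 for C5AR1 and 0.13 for CFP. C1R was at 0.12 with limma-voom with quality weights. CFI could not be tested under the filter of 1 CPM. The causes were not tested.

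Same-numbered libraries of the 2 groups had correlations of deviations of 0.19, -0.05 and 0.02, and PSC library 3 with PSCN library 2 had 0.19. With 3 libraries per group, these values cannot settle whether the numbers pair them. In the fit with the replicate block 0 members passed, and C4B stood at -1.39. CFI, CFD, COLEC11, C4BP and VSIG4 rest on few counts in PSCN. Each group has 3 libraries, the PSC libraries differ among themselves, and sex is uneven between the groups. PSC library 3, the highest of its group in squamous markers, correlated better with PSCN than with PSC. PSC library 1, the lowest in those markers, correlated least with the other group (mean r = 0.861 across genes).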

Other observations

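For each C3AR1 count there were 6.88, 5.88 and 7.07 C1QA counts across PSC, against 4.2, 3.40 and 3.89 across PSCN, a pair chosen after the values were seen. The groups did not overlap, although each gene alone did. The ratio of CFB to C2 counts, neighbours on chromosome 17, was 4.91, 24.4 and 76.9 in PSC and 10, 6.57 and 24.1 in PSCN, so these adjacent genes did not keep 1 ratio within either group. C3AR1 had 20 counts for each C5AR1 count in PSCN library 1 and between 1.38 and 2.37 in the other 5 libraries.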
